A study of Drosophila melanogaster with 90 samples.

Results

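The comparison described here sets Drosophila pupae kept in a closed container against pupae kept in an open one, at normal gravity and after a cold step. Its 7 arrays were chosen by their labels, as the 1g controls placed outside the random positioning machine (RPM) with suboptimal temperature, and they split into 4 arrays with limited oxygen and 3 with normal oxygen, out of 90 arrays in the series. The RPM is a device that keeps turning a sample about several axes so that the direction of gravity averages out, and the arrays described here stood beside it. Each array holds RNA of a pool of whole Oregon R pupae collected late, just before eclosion. Closed pupae had the cold step (3 days at 12 °C in the series description) and then developed in a hermetically sealed metal container of the type flown in space, where oxygen is limited. Open pupae had the same cold step and the same container type, with membranes that let air through. The temperature of the later growth is 24 °C over 3.5 days in the labels, while the study's methods give another temperature and length for that growth, a longer cold step, and do not give the cold temperature alike throughout. No closed group without the cold step was found among the RPM arrays, so the values describe the container in cold-treated pupae only. The seal limits air exchange as a whole, so oxygen and other gases, humidity and light cannot be told apart.

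When oxygen falls, insect cells keep the transcription factor Sima, the fly counterpart of the hypoxia-inducible factor alpha subunit. With enough oxygen the prolyl hydroxylase Hph marks Sima for removal. Sima targets include Hph itself, the growth inhibitor scyl and genes of the tracheal system, the branching tubes that carry air to insect tissues, whose growth is steered by the fibroblast growth factor bnl and its receptor btl. Metamorphosis runs on pulses of the steroid ecdysone, whose receptor EcR with its partner usp switches on a cascade of nuclear receptors, among them Hr3, Hr4 and ftz-f1, while adult cuticle, flight muscle, eyes and reproductive glands are built. In such a timed programme whole groups of genes move within hours. The age of each pool in hours is not given in the sources used here, and its part in these values was not tested.

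The 7 arrays did not form a clean split by container. Closed replicates 1 and 2 lay beside the open arrays on the first principal component of the RPM 1g controls (32.6 and 25.8, against 22.9, 21.5 and 28.7 in open replicates 1 to 3). Closed replicates 3 and 4 lay apart from them, at -7.81 and -10.7 on that component and at 28.1 and 35.2 on the second, where the other 8 arrays were all below 0. The 1g controls that had no cold step were at -50.6, -56.4 and -5.93 on the first component. Correlation between arrays ran from 0.975 to 0.993 within the closed group and from 0.995 to 0.996 within the open group, and the median standard deviation of a probe set was 0.170 in closed and 0.100 in open arrays. Labels name no batch for these arrays, so whether replicates 3 and 4 were handled apart was not tested, and results are given below with and without them. The raw files of closed arrays carry the letters E to H and those of open arrays A to C, with no letter shared, so anything the letters mark cannot be told apart from the container.

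**Figure D1:**
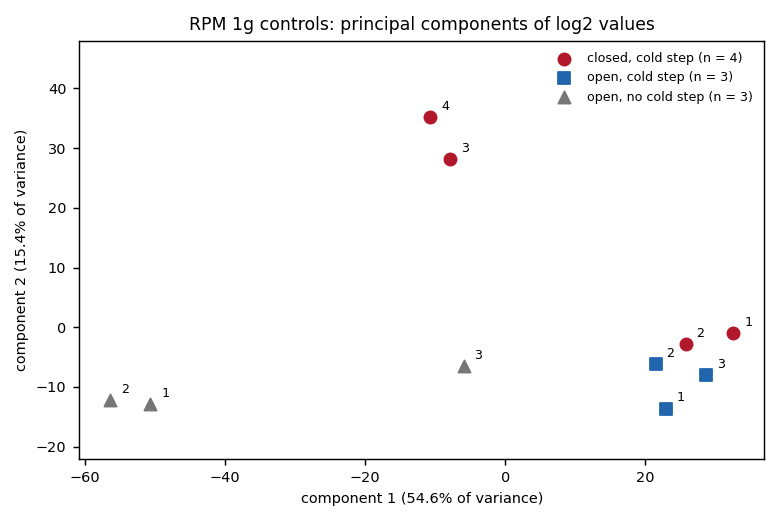
Each point is 1 array of the RPM 1g controls, placed by its first principal component (horizontal, 54.6% of variance) and second (vertical, 15.4%) over 18769 probe sets, with replicate numbers beside the points. Closed replicates 1 and 2 sit with the 3 open arrays, and closed replicates 3 and 4 sit apart from both the open arrays and the arrays without cold step.

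Of 18769 probe sets, 1 passed at a Benjamini-Hochberg adjusted p under 0.05 in limma (0.00533% of those tested), and it was lower in closed pupae. It belongs to CG42337, a gene for which the sources used here give no function. Its log2 intensity was 3.99, 4.24, 4.14 and 4.23 in closed replicates 1 to 4, against 4.95, 4.87 and 5.07 in open replicates 1 to 3. All closed arrays lay below all open arrays, by more than the spread in either group. The fall was 1.76-fold (log2 difference -0.81, SE 0.10, adjusted p = 0.00507, limma). Controls without the cold step had 4.17, 4.14 and 3.94 and so overlapped the closed arrays. A further probe set of CG42337 had a mean of 4.54 in closed and 4.63 in open pupae (difference -0.09, adjusted p = 0.76), and the gene was no longer called once its probe sets were averaged (-0.45, adjusted p = 0.27). The call also ended without open replicate 1 (adjusted p = 0.0553) or open replicate 3 (adjusted p = 0.101), and when only both groups compared entered the fit (adjusted p = 0.12).

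Below that threshold, 2333 probe sets (12.4%) had an unadjusted p under 0.05, 1151 of them higher (6.13%) and 1182 lower (6.30%) in closed pupae. At an unadjusted p under 0.001 there were 16 higher (0.0852%) and 55 lower (0.293%). All 4 closed arrays lay above all 3 open arrays for 1420 probe sets (7.57%) and below them for 1331 (7.09%). The median difference over all probe sets was 0.02 and 55.0% of them were above 0. Dim probe sets leaned upward (median 0.08 at a mean level of 3 to 4) and brighter ones downward (-0.06 at 6 to 8), which stands beside every small difference given for a dim gene.

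The genes of smallest p below zero included ths, of growth factor signalling, and cpx, of the synapse. Values of ths, the thisbe ligand of a fibroblast growth factor receptor, were 4.16, 4.17, 4.10 and 4.27 in closed arrays and 4.97, 4.76 and 4.67 in open arrays (difference -0.62, SE 0.11, adjusted p = 0.113). For cpx, complexin, which holds synaptic vesicles ready for release, closed arrays had 6.69, 5.98, 6.41 and 6.52 and open arrays 7.23, 7.52 and 7.56 (-1.04, SE 0.19, adjusted p = 0.127). Neither pair of groups overlapped, yet a brighter probe set of cpx ran the other way, with means of 9.56 in closed and 9.35 in open pupae (0.20, adjusted p = 0.551).

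The sodium/proton exchanger Nhe2 showed the tightest groups of this set. Closed arrays held 4.11, 4.10, 4.12 and 4.08, against 4.53, 4.59 and 4.61 in open arrays (-0.47, SE 0.09, adjusted p = 0.123). The lipid phosphatase wun, known for guiding germ cells in the embryo, was at 7.37, 7.53, 7.19 and 7.28 in closed and 7.93, 8.05 and 7.89 in open pupae (-0.61, SE 0.12, adjusted p = 0.162). Ref1, a messenger RNA export factor, was at 4.93, 4.94, 4.75 and 5.18 in closed and 5.51, 5.44 and 5.84 in open pupae (-0.65, adjusted p = 0.127). In none of these 3 genes did the groups overlap. Brighter probe sets of Ref1 differed less, with means of 7.04 in closed and 7.41 in open pupae (-0.37, adjusted p = 0.381) and, in the brightest, 8.44 and 8.50 with overlap (-0.06, adjusted p = 0.828). Further genes of this set, CG9449, CG4911 and CG1513, had differences of -0.90, -0.87 and -0.88 with adjusted p between 0.113 and 0.127.

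Differences above zero were smaller and none passed. CG10494 had the smallest p of them, with 5.28, 4.96, 5.20 and 5.20 in closed and 4.64, 4.62 and 4.42 in open arrays (0.60, SE 0.12, adjusted p = 0.127). The GABA-gated chloride channel subunit Rdl, which carries fast inhibition between neurons, was at 7.27, 7.13, 7.51 and 7.52 in closed and 6.68, 6.99 and 7.02 in open arrays (0.46, SE 0.10, adjusted p = 0.204). Both genes had all closed arrays above all open ones. For lolal, a BTB-domain chromatin protein, values of 9.22, 9.11, 9.68 and 9.55 in closed stood against 8.86, 8.93 and 8.80 in open pupae (0.53, SE 0.13, adjusted p = 0.254). The remaining 7 genes, E5 (a homeobox gene), CG15209, CG32212, CG13023, stw (a laccase that tans cuticle), CG4306 and Nepl14 (a neprilysin-like peptidase), had differences of 0.39 to 0.61 and adjusted p of 0.146 to 0.264. In stw the probe set concerned is a dim one (3.50 in closed, 3.06 in open), and the brightest probe set of the gene overlapped between groups (10.7 and 10.4, adjusted p = 0.57). That of CG13023 is dim too, and a brighter probe set of the gene overlapped between groups. Its means were 5.77 in closed and 4.64 in open pupae (1.14, SE 0.98, adjusted p = 0.605).

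**Figure D2:**
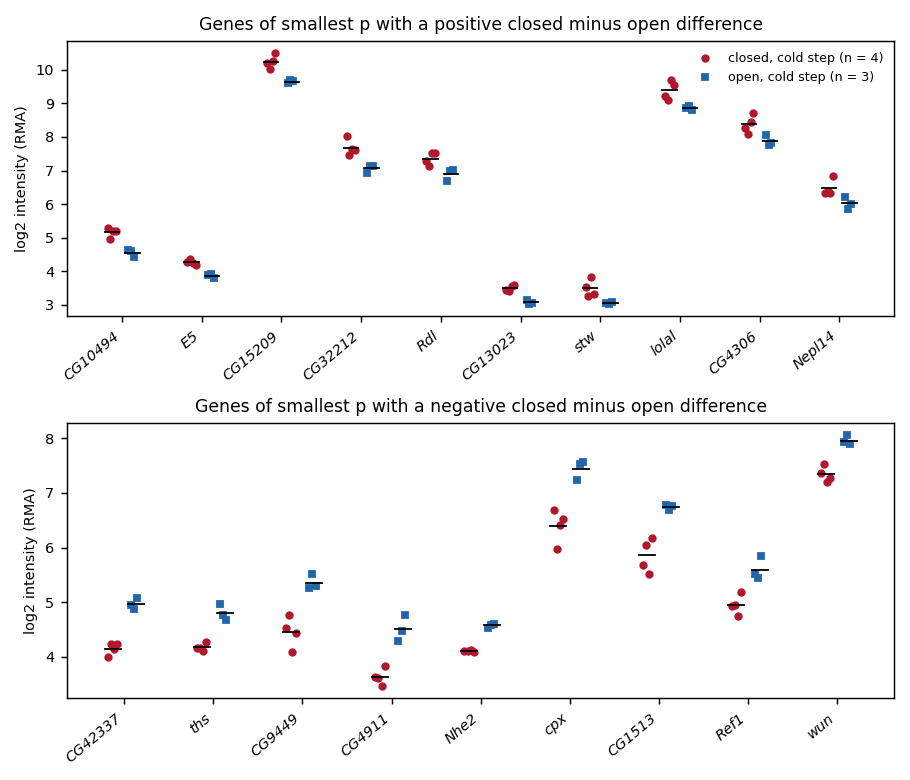
Points are single arrays (log2 intensity, vertical axis), red for closed and blue for open, with the group mean as a black line, for the 10 genes of smallest p with a positive difference (upper panel) and 9 of those with a negative one (lower panel). Closed and open arrays do not overlap in any gene shown, and CG42337 alone was called at an adjusted p under 0.05.

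No oxygen response gene was called. Hph was at 8.28, 8.42, 9.38 and 8.99 in closed and 8.26, 8.54 and 8.56 in open pupae (0.31, SE 0.25, adjusted p = 0.577). Only closed replicates 3 and 4 lay above the open arrays, and without them the difference was -0.10. A dimmer probe set of Hph had means of 6.65 in closed and 6.18 in open pupae and also overlapped (0.47, unadjusted p = 0.0489, adjusted p = 0.401). The factor sima itself was at 5.82, 6.34, 6.09 and 6.73 in closed and 6.34, 6.95 and 6.65 in open pupae (-0.40, SE 0.26, adjusted p = 0.50), with overlapping groups. The REDD1-like growth inhibitor scyl read 8.94, 8.48, 9.37 and 9.18 in closed, against 9.02, 8.95 and 8.99 in open arrays (0.01, SE 0.22, adjusted p = 0.993).

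The tracheal growth factor bnl was at 5.49, 5.50, 6.10 and 6.37 in closed and 5.45, 5.63 and 5.55 in open pupae (0.32, SE 0.21, adjusted p = 0.496). As with Hph, the closed arrays above the open range were replicates 3 and 4. Dimmer probe sets of bnl differed by -0.10 and 0.20, with overlap. Its receptor btl was at 4.32, 4.21, 4.36 and 4.79 in closed and 4.08, 4.26 and 4.09 in open pupae (0.28, SE 0.14, adjusted p = 0.423). The globin glob1, an oxygen-binding protein of tracheal cells and fat body, was at 8.30, 8.76, 9.04 and 9.34 in closed and 8.64, 8.70 and 8.39 in open pupae (0.28, SE 0.25, adjusted p = 0.608). Every closed group overlapped its open group in these 6 genes. Ldh, chrb and Thor, further targets of the pathway, have no probe set with that single symbol in the annotation used. With the brightest probe set of each of the 13 oxygen response genes, 0 had an unadjusted p under 0.05 (against 12.4% of all probe sets). Free of overlap were 0, against 7.57% of all probe sets in the higher and 7.09% in the lower direction. With so few genes, 0 is not told apart from these shares. The median difference was 0.11, against 0.02 over all probe sets.

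**Figure D3:**
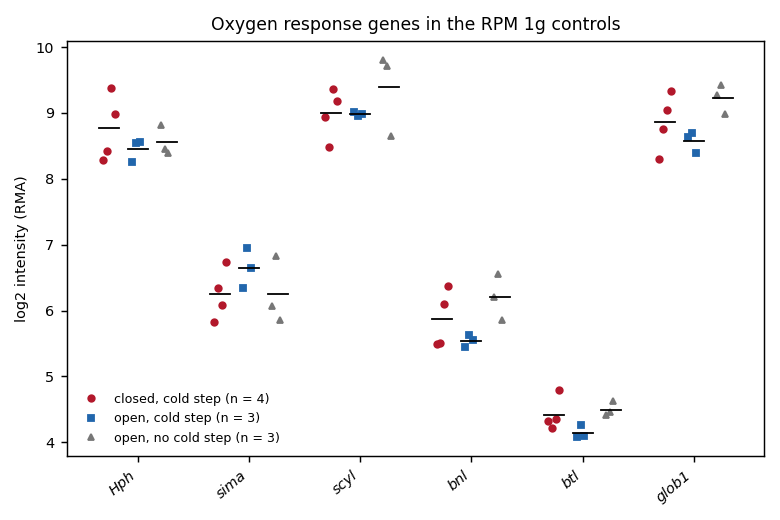
Log2 intensity of 6 oxygen response genes in each array, with closed cold-treated pupae in red, open cold-treated pupae in blue, pupae without the cold step in grey, and group means as black lines. Closed and open arrays overlap in all 6 genes, and the closed arrays are more spread than the open ones.

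Energy metabolism leaned downward in closed replicates 3 and 4, without a call. Of 11 glycolytic enzymes, 8 were below 0, with a median of -0.19. Only 1 was lower at an unadjusted p under 0.05 (9.09%, against 6.30% of all probe sets). That gene is the aldolase Ald1, at 10.94, 11.30, 10.89 and 10.96 in closed and 11.21, 11.47 and 11.26 in open pupae (-0.29, adjusted p = 0.40), with overlap through closed replicate 2. A dimmer probe set of Ald1 ran the other way, with means of 9.30 in closed and 9.20 in open pupae (0.10, adjusted p = 0.657). The list mean was 10.60, 10.63, 10.22 and 10.08 in closed replicates 1 to 4, against 10.60, 10.54 and 10.54 in open pupae, so it was lower in replicates 3 and 4 only. Of 75 genes in the respiratory chain and ATP synthase list, 18 were above 0 (median -0.10). The list takes genes by name and includes subunit-like genes with a final L, such as COX4L and ATPsynbetaL. In which tissues these are expressed was not tested. All probe sets had medians of -0.02 at levels of 8 to 10 and -0.06 over 10. At an unadjusted p under 0.05, 2 of these genes were lower (2.67%, against 6.30% of all probe sets). Wholly below the open arrays lay 6 (8%, against 7.09% of all probe sets). The list mean was 10.14, 10.16, 9.94 and 9.89 in closed replicates 1 to 4, against 10.19, 10.09 and 10.16 in open pupae. ATPsynbeta, the catalytic subunit of ATP synthase, was at 13.32, 13.31, 13.04 and 13.16 in closed and 13.48, 13.42 and 13.54 in open pupae (-0.27, adjusted p = 0.355). COX6CL, a cytochrome c oxidase subunit by name, differed by -0.55 (adjusted p = 0.382).

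Stress and defence lists held no call either. Of 14 heat shock proteins and chaperones, 2 were above 0 (median -0.22), and Hsc70-1 alone had an unadjusted p under 0.05 (9.62, 10.01, 8.92 and 8.97 in closed, against 9.98, 9.91 and 10.01 in open arrays, adjusted p = 0.357). This 1 gene is 7.14% of the list, against 6.30% of all probe sets lower at that threshold. The list mean was 9.25, 9.72, 9.99 and 9.69 in closed replicates 1 to 4, against 9.92, 9.82 and 9.82 in open pupae. Closed replicate 1 lay farthest below the open arrays, and closed replicate 3 lay above them. In the same comparison on the RPM the list median was 0.07. The 13 antimicrobial peptides had a median of 0.07 and 0 with an unadjusted p under 0.05, against 12.4% of all probe sets. The stress-induced Turandot genes had a median of 0.49 over 5 genes, which rested on a single array. Their mean level was 5.64 in closed replicate 2, against 3.85 to 4.02 in the other closed arrays and 3.65 to 3.99 in the open arrays. Among 81 cytochrome P450 genes, whose enzymes oxidise steroids and foreign compounds, 5 were higher (6.17%, against 6.13% of all probe sets) and 7 lower (8.64%, against 6.30%) at an unadjusted p under 0.05, with a median of -0.04. Cyp6g1, known for insecticide resistance, was at 8.96, 9.02, 7.42 and 6.80 in closed and 9.27, 9.19 and 9.18 in open pupae (-1.16, SE 0.44, adjusted p = 0.346). No closed array reached the open range, but only replicates 3 and 4 were far below it. Cyp4d20 had the same layout (7.47, 7.82, 6.31 and 6.28 in closed, 7.93, 7.97 and 7.88 in open pupae, -0.96, adjusted p = 0.341). Cyp317a1 differed by -0.58 and Cyp4d14 by 0.26, with adjusted p of 0.301 and 0.345.

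Osiris genes, an insect family active while cuticle is laid down, had the median farthest above zero among the 34 lists (0.66 over 24 genes, with 22 above 0). Of the 24, 4 had an unadjusted p under 0.05 (16.7%, against 6.13% of all probe sets in that direction) and 5 were free of overlap (20.8%, against 7.57%). The mean of the list was 5.24, 5.17, 6.34 and 6.72 in closed replicates 1 to 4, against 5.42, 5.21 and 5.07 in open pupae. Closed replicates 1 and 2 therefore lay in the open range, and the median rests on replicates 3 and 4. Osi17 was at 4.67, 4.69, 5.36 and 5.83 in closed and 4.51, 4.44 and 4.14 in open pupae (0.77, SE 0.27, adjusted p = 0.335), and Osi1 differed by 0.90 (SE 0.31, adjusted p = 0.335). Osi10b and Osi21 differed by 0.22 and 0.37. Pupae without the cold step had Osiris means of 6.56, 6.46 and 5.55, so the open cold-treated arrays and closed replicates 1 and 2 lay below all of them.

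Cuticle proteins leaned the same way, with 85 of 105 genes above 0 and a median of 0.19. At an unadjusted p under 0.05, 12 were higher (11.4%, against 6.13% of all probe sets) and 1 was lower (0.952%, against 6.30%), and 7 were free of overlap (6.67%, against 7.57%). Cpr49Ag, a structural cuticle protein, was at 10.27, 10.15, 10.45 and 10.60 in closed and 9.83, 10.05 and 9.90 in open pupae (0.44, SE 0.15, adjusted p = 0.335). TwdlF, Cpr67Fa1 and Cpr65Eb differed by 0.43, 0.27 and 0.27 from dim levels under 4, where the array-wide median was itself above 0.

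The ecdysone cascade held both directions. The nuclear receptor ftz-f1, which makes tissues competent for the next hormone pulse, was at 8.59, 8.68, 8.05 and 8.19 in closed and 9.24, 9.35 and 9.52 in open pupae (-0.99, SE 0.22, adjusted p = 0.202). Its groups did not overlap, in replicates 1 and 2 as in 3 and 4, and the pupae without the cold step had 8.10, 8.06 and 8.14. Hr4 was at 4.98, 3.76, 5.72 and 6.15 in closed and 3.77, 4.13 and 4.17 in open pupae (1.13, SE 0.45, adjusted p = 0.357), with closed replicate 2 at the low end. Hr3 had 5.22, 5.27, 6.03 and 6.27 in closed, against 5.07, 5.28 and 5.14 in open arrays (0.53, adjusted p = 0.359), again through replicates 3 and 4. The receptor partner usp differed by 0.29 (adjusted p = 0.39) without overlap. Over 18 genes the median was 0.29, with 15 above 0, and at an unadjusted p under 0.05 there were 4 higher (22.2%, against 6.13% of all probe sets) and 1 lower (5.56%, against 6.30%). Dimmer probe sets of ftz-f1 (difference 0.09) and Hr4 (0.16 and 0.04) overlapped between containers.

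Among 11 eclosion and ecdysis hormone genes, the neuropeptide gene Proc (proctolin, a muscle-stimulating peptide) was at 5.0, 4.88, 4.27 and 4.73 in closed and 5.22, 5.52 and 5.52 in open pupae (-0.70, SE 0.17, adjusted p = 0.237). Mip, the myoinhibitory peptide, was at 5.95, 5.75, 6.29 and 6.20 in closed and 5.55, 5.56 and 5.60 in open pupae (0.48, adjusted p = 0.337). Neither overlapped between containers. In the clock list per, a repressor of the daily cycle, was at 5.84, 5.73, 5.62 and 5.76 in closed and 5.20, 5.30 and 4.94 in open pupae (0.59, SE 0.19, adjusted p = 0.33), and Clk, an activator of the same loop, differed by -0.40 (adjusted p = 0.359). The time of day of collection is not given in the sources used here.

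Tissue and sex markers are given next, and none of them was called. In whole animals, fewer cells of a type and less RNA per cell cannot be told apart. The 25 accessory gland genes, whose products males pass to females with sperm, had 4 above 0, a median of -0.33 and 11 lower at an unadjusted p under 0.05 (44%, against 6.30% of all probe sets). Their mean was 5.08, 4.53, 3.94 and 3.92 in closed arrays, against 5.49, 4.65 and 5.25 in open arrays. Closed replicate 1 and open replicates 1 and 3 were high, and 3 genes were free of overlap in the lower direction (12%, against 7.09%). Acp63F was at 6.33, 5.91, 3.74 and 4.22 in closed and 7.63, 6.54 and 7.09 in open pupae (-2.04, SE 0.75, adjusted p = 0.343). Sfp33A3, Acp26Ab and Dup99B, further seminal proteins, differed by -1.37, -1.42 and -1.05, and 2 of them overlapped between containers.

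Of 46 testis and sperm genes, 6 were above 0 (median -0.29). At an unadjusted p under 0.05, 5 were lower (10.9%, against 6.30% of all probe sets). Of the 46, 15 lay wholly below the open arrays (32.6%, against 7.09%). The sperm protein gene Mst84Dd was at 9.10, 9.36, 9.07 and 8.85 in closed and 9.60, 9.73 and 9.89 in open pupae (-0.65, SE 0.23, adjusted p = 0.341). The spermatocyte transcription regulators topi and sa differed by -0.46 and -0.36, and hale by -0.45. The mean of this list was 7.40, 7.12, 7.36 and 7.09 in closed, against 7.46, 7.39 and 7.66 in open pupae, so it did not follow the division of replicates 1 and 2 from 3 and 4. The 26 ovary and egg genes had a median of 0.05. The number of males in each pool is not given in the sources used here, and its part in these values was not tested.

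Flight muscle genes had 1 of 18 above 0 (median -0.21). At an unadjusted p under 0.05, 1 was lower (5.56%, against 6.30% of all probe sets). Wholly below the open arrays lay 7 (38.9%, against 7.09%). Zasp66, a protein of the muscle Z disc, was at 12.42, 12.30, 11.89 and 11.69 in closed and 12.60, 12.47 and 12.56 in open pupae (-0.47, SE 0.19, adjusted p = 0.357). The list mean of 12.43, 12.41, 12.25 and 12.18 in closed stood against 12.47, 12.52 and 12.52 in open pupae. Photoreceptor genes had means of 7.98, 7.91, 7.55 and 7.38 in closed and 7.89, 7.93 and 7.92 in open pupae. Of these 16 genes, 0 had an unadjusted p under 0.05, against 12.4% of all probe sets. Larval glue genes, made by salivary glands before pupation, averaged 3.55 to 3.67 in closed and 3.42 to 4.35 in open pupae.

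Neuronal genes lay in both directions. The synaptic vesicle protein nSyb was at 6.76, 6.65, 6.60 and 6.84 in closed and 7.20, 7.48 and 7.64 in open pupae (-0.73, SE 0.16, adjusted p = 0.202), and VGlut, which loads glutamate into vesicles, differed by -0.63 (SE 0.19, adjusted p = 0.314). Both groups of closed arrays lay below the open ones, while Rdl lay above, and the 12 neuronal genes had a median of -0.07. A dimmer probe set of VGlut differed by 0.08, with overlap. Chemoreceptor genes sat at dim levels, near 3 on the log2 scale. Of 57 odorant receptors, 48 were above 0 (median 0.12), with 9 higher (15.8%, against 6.13% of all probe sets) and 1 lower (1.75%, against 6.30%) at an unadjusted p under 0.05. Of 56 gustatory receptors, 47 were above 0 (median 0.11), with 5 higher (8.93%) and 1 lower (1.79%). These medians stand beside 0.08 for all probe sets of that brightness. Or83c, Or10a, Or65b and Or47b had differences of 0.20 to 0.40, Gr58c, Gr28b and Gr10b of 0.22 to 0.35, and Gr32a differed by -0.43 with closed arrays at 3.72 to 4.02 and open arrays at 4.31 to 4.37. Across all 34 lists, 0 held a call at 1g, and the 13 lists not described here (276 entries, among them antioxidant enzymes, glutathione S-transferases, ribosomal proteins and insulin signalling) had medians of -0.22 to 0.17.

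**Figure D4:**
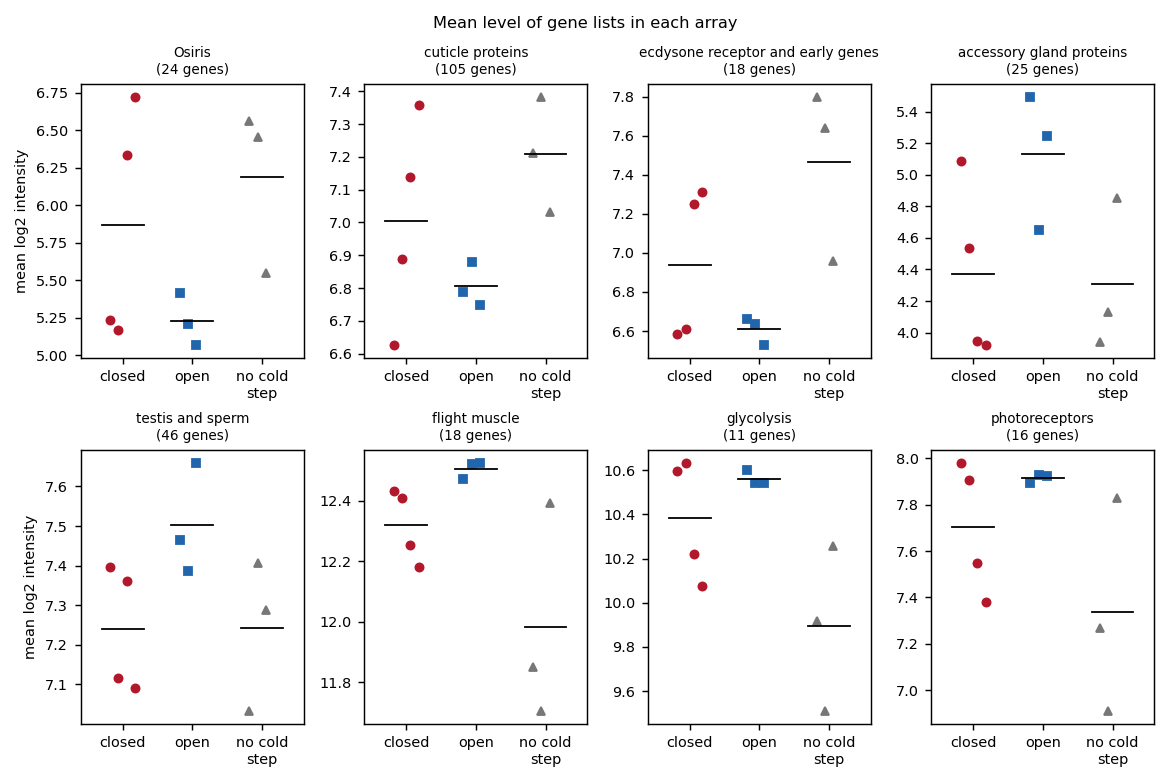
Mean log2 intensity of 8 gene lists in each array, with closed (red), open (blue) and no cold step (grey) from left to right in each panel, group means as black lines and a separate vertical scale per list. Osiris and ecdysone lists are high, and glycolysis and photoreceptor lists low, in closed replicates 3 and 4, while closed replicates 1 and 2 lie near the open arrays.

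Pupae that were turned on the RPM gave the same container comparison in other pools, with 4 closed and 3 open arrays after the cold step. No array is shared, although both comparisons draw their spread from the same limma fit of 20 arrays. On the RPM 279 probe sets were called (1.49%), 41 higher (0.218%) and 238 lower (1.27%) in closed pupae, but 0 were called without open RPM replicate 2 or without open RPM replicate 3, and 610 were called without closed RPM replicate 2. With the replicate number as a block 74 were called. Same-numbered closed arrays at 1g and on the RPM carry the same file letter, and their deviations from the group means correlated at 0.266, 0.174, 0.055 and 0.330 for replicates 1 to 4. Different-numbered closed arrays ran from -0.273 to 0.208. Among them, 1g replicate 1 with RPM replicate 2 had 0.196, and 1g replicate 3 with RPM replicate 4 had 0.208. The closed RPM arrays also lay in pairs. Replicates 1 and 2 correlated at 0.990 and replicates 3 and 4 at 0.990, against 0.979 to 0.986 across these pairs. In the closed 1g arrays these values were 0.990 and 0.993, against 0.975 to 0.982. Whether the letters mark a shared batch was not tested. Of the 238, 236 were below 0 also at 1g, where 55.0% of all probe sets were above 0, and 136 had an unadjusted p under 0.05 there (57.1%, against 6.30% of all probe sets in that direction), with a median of -0.36 at 1g and -0.72 on the RPM. Of the 41, 38 were above 0 at 1g and 23 had an unadjusted p under 0.05 (56.1%, against 6.13%), with medians of 0.32 at 1g and 0.62 on the RPM. Across all probe sets the 1g and RPM differences correlated at r = 0.598, which describes probe sets of 1 platform and is no test over animals. A direct test of the difference between 1g and RPM called 0 probe sets in limma (790 at an unadjusted p under 0.05, which is 4.21%, and 4 under 0.001, which is 0.0213%), so no container difference was shown to be particular to the 1g controls.

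The genes with the largest calls on the RPM show how the 1g arrays lined up with them. The sugar hydrolase gene tobi, a target of insulin signalling, was at 7.41, 7.73, 4.74 and 4.31 in closed and 8.10, 7.77 and 7.28 in open 1g pupae (-1.67, SE 0.66, adjusted p = 0.357), and it fell by 2.73 on the RPM (SE 0.66, adjusted p = 0.0462). CG18302 was at 6.56, 5.70, 3.09 and 2.86 in closed and 7.07, 5.83 and 6.18 in open 1g pupae (-1.81, SE 0.67, adjusted p = 0.343), against a fall of 3.52 on the RPM (adjusted p = 0.0179). In both genes closed replicates 3 and 4 at 1g were low and replicates 1 and 2 lay in or just below the open range. Acp36DE, a seminal protein needed for sperm storage, differed by -1.15 at 1g (adjusted p = 0.376) and fell by 2.38 on the RPM (adjusted p = 0.0264). The corneal lens protein gene retinin differed by -0.55 at 1g and fell by 2.65 on the RPM. CG34324 and Achl differed by -1.27 and -1.14 at 1g and, among called genes, by -2.45 and -2.35 on the RPM.

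In the other direction the cuticle protein gene Cpr64Ab was at 9.76, 10.37, 11.18 and 11.99 in closed and 9.78, 9.67 and 10.05 in open 1g pupae (0.99, SE 0.44, adjusted p = 0.378), and it rose by 2.10 on the RPM (adjusted p = 0.0252). Jhbp4, of the juvenile hormone-binding protein family by name, was at 7.76, 7.93, 8.72 and 8.92 in closed and 6.98, 7.04 and 8.04 in open 1g pupae (0.98, adjusted p = 0.354), with a rise of 1.86 on the RPM (adjusted p = 0.0223). CG15615, CG13031, CG13721 and CG14397 differed by 0.54 to 1.16 at 1g and rose by 1.23 to 1.89 on the RPM. Among genes of smallest p at 1g, CG42337 fell on the RPM too (-0.45, adjusted p = 0.0334), as did wun (-0.72, adjusted p = 0.0133) and ftz-f1 (-1.06, adjusted p = 0.0252), while Rdl (0.51, adjusted p = 0.0238), lolal (0.62, adjusted p = 0.0274) and CG32212 (0.93, adjusted p = 0.0078) rose. E5 and CG13023, with 0.39 and 0.42 at 1g, had 0.06 each on the RPM. The testis list, with a median of -0.29 at 1g, had 0.28 on the RPM, with 39 of 46 genes above 0. In the direct test of 1g minus RPM its median was -0.58, with 41 genes below 0. There 12 were lower at an unadjusted p under 0.05 in limma (26.1%, against 4.21% of all probe sets in either direction), and 0 were called.

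The magnet facility supplied a further closed against open comparison at 1g after the cold step, with 3 arrays each, in a plastic tube arena well away from the magnet. There 296 probe sets were called (1.58%), 185 higher (0.986%) and 111 lower (0.591%) in closed pupae, and 80 with only both groups in the fit. Many ran the other way in the RPM 1g controls. Of the 185, 151 were below 0 there, and of the 111, 98 were above 0, where 55.0% of all probe sets were above 0. At an unadjusted p under 0.05 there, 27 of the 185 were lower (6.30% of all probe sets were) and 2 higher. Of the 111, 20 were higher (6.13% of all probe sets were) and 2 lower. Across probe sets the RPM 1g and magnet differences correlated at r = -0.236. Tested directly, 221 probe sets differed between the RPM 1g and magnet 1g comparisons (1.18%), 80 with a more positive difference at the RPM (0.426%) and 141 with a more negative one (0.751%). With only the compared groups in the fit, 3 passed (1 more positive, 2 more negative), and with the replicate block 108 passed. With quantile normalization repeated this split was 108 and 116, and with median centring 112 and 98, so the balance of directions is not settled. Leaving out single arrays moved the total between 51 (without closed magnet replicate 3) and 509 (without closed RPM 1g replicate 2).

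The juvenile hormone-binding family gene Jhbp13 gave the largest such difference among named genes, chosen after its values were seen. It was at 11.15, 11.14, 7.87 and 6.65 in closed and 11.44, 11.08 and 10.89 in open RPM controls (-1.93), and at 7.14, 9.06 and 9.52 in closed and 6.41, 6.46 and 6.04 in open magnet controls (2.27), a difference of -4.20 (SE 0.97, adjusted p = 0.0181). The tracheal gene apn ran opposite, at 6.91, 7.16, 9.22 and 9.63 in closed and 7.36, 7.53 and 6.08 in open RPM controls (1.24), and at 7.54, 7.75 and 6.70 in closed and 9.08, 9.20 and 10.19 in open magnet controls (-2.16), a difference of 3.40 (SE 0.65, adjusted p = 0.00329). In each gene the RPM side rested on closed replicates 3 and 4. Site and container differed between the facilities and cannot be told apart.

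Of the 6 oxygen genes, btl was the only one called for a difference between the facilities. The receptor had 0.28 in the RPM controls and fell by 0.79 in closed magnet pupae (adjusted p = 0.00229), and the difference was 1.07 (adjusted p = 0.00325). Osi17, with 0.77 in the RPM controls, fell by 1.25 in closed magnet pupae (adjusted p = 0.00159), and Cyp6g1, with -1.16, rose there by 0.77 (adjusted p = 0.0347). CG42337 lay lower in closed pupae in both facilities, with -0.38 in the magnet controls (adjusted p = 0.459), and this difference from the RPM value was not called (adjusted p = 0.398).

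**Figure D5:**
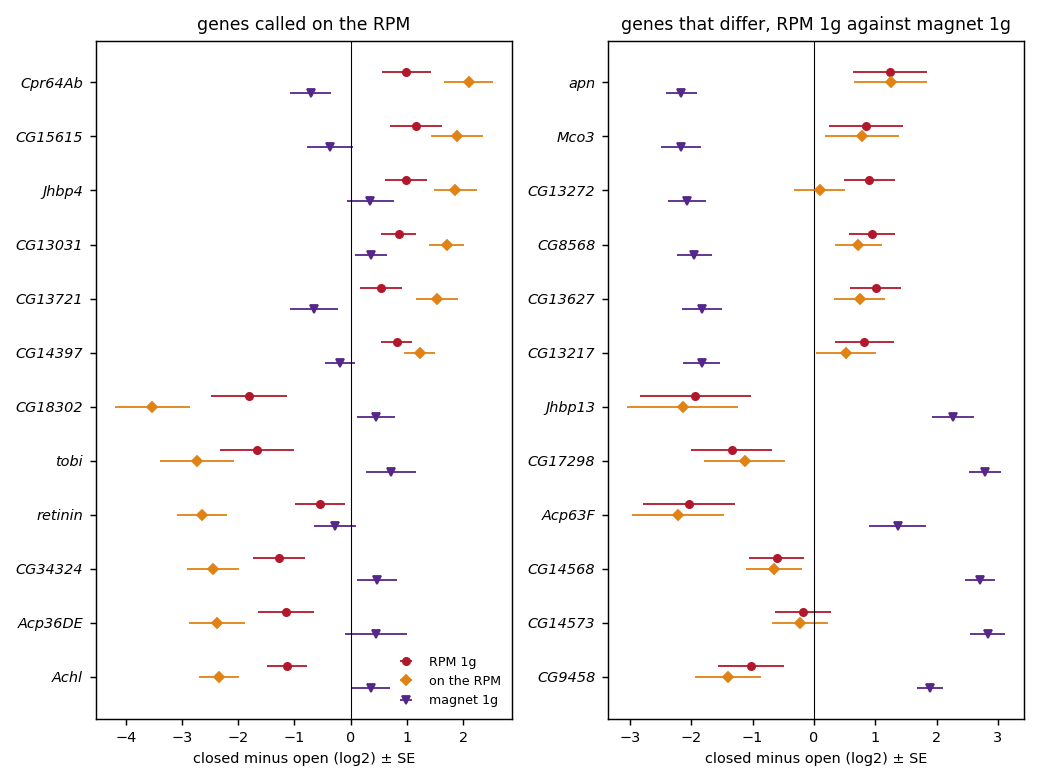
Closed minus open difference (log2, horizontal axis, bars ± 1 SE from limma) at RPM 1g (red circles), on the RPM (orange diamonds) and at magnet 1g (purple triangles), for the 12 genes of largest called difference on the RPM (left) and 12 of largest called difference between RPM 1g and magnet 1g (right). RPM 1g values lie on the same side of 0 as those on the RPM in all 24 genes, and the genes of the right panel were chosen for lying apart from the magnet values.

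Which closed arrays enter decides the count of calls at 1g. Without closed replicates 3 and 4 there were 0 calls and CG42337 was at an adjusted p of 0.097, and without closed replicates 1 and 2 there were 958 calls, 454 higher and 504 lower. These pairs were chosen after the values were seen, and the second count describes arrays picked for standing apart. Leaving out single arrays gave 0 to 5 calls, with 0 without open replicate 1 or 3 and 5 without closed replicate 2. Several list medians rested on replicates 3 and 4 as well. Without that pair the median was 0.02 for Osiris genes, 0.03 for cuticle proteins, 0.04 for the ecdysone list, 0.01 for glycolysis, 0.05 for the respiratory chain and -0.07 for oxygen response genes. Without closed replicates 1 and 2 the Osiris median was 1.21, the ecdysone median 0.56 and the glycolysis median -0.30. The testis median (-0.26 without replicates 3 and 4, -0.31 without 1 and 2) and the odorant receptor median (0.11 and 0.12) depended less on the choice, and the accessory gland median was -0.20 and -0.54.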

How the data were processed

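The authors deposited log2 intensities of Affymetrix Drosophila Genome 2 arrays, made with RMA and rounded to 2 decimals. The labels name RMA and limma without versions, and a genome build is not given in the sources used here. Of 18952 probe sets, 183 controls were left out. A current gene table gave 1 symbol to 13647 of the others, several to 402 and none to 4720. Of 90 arrays, 50 entered (20 RPM, 30 magnet) and 40 did not.

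Groups came from the labels. Tests, all two-sided, came from limma (version 3.58.1, run under R 4.3.3), through lmFit followed by eBayes, and p-values were adjusted after Benjamini-Hochberg over 18769 probe sets, with all 6 RPM groups in 1 fit, all 10 magnet groups in another and both together for differences between facilities. Replicates are labelled biological, and each is a pool. The number of arrays limits precision, and p-values measure the spread between these pools. Lists used the brightest probe set of a gene, and 9 genes that a list's spelling had caught wrongly were removed. Genes named were called ones without overlap, the 10 of smallest p in each direction, an oxygen panel and up to 4 per described list among those of unadjusted p under 0.05. A gene that this rule names is not reported here. Genes named from the RPM and magnet comparisons are the 6 largest calls in each direction. The members, lists and rules were chosen with earlier results of these data known. Alternatives changed the groups in the fit, the scaling, a filter on dim probe sets (below the 40th percentile), eBayes settings, weights, block, threshold and arrays. Figures were drawn with Python 3.11.15 and matplotlib 3.10.9.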

Additional observations from a re-analysis of the deposited data

Results flagged for a closer look

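Of 87 sets of 4 closed 1g values examined (named genes and list means), 4 held an array far from the others, and chance gives about 1 in 20. Closed replicate 2 had a Turandot mean of 5.64, against 3.85 to 4.02 in the other 3 closed arrays. Closed replicate 4 had 6.85 for Nepl14, against 6.33 to 6.39. For Ald1 closed replicate 2 had 11.30, against 10.89 to 10.96. Closed replicate 1 had 3.76 for Cpr67Fa1, against 3.89 to 3.90.

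The closed minus open difference differed between the RPM 1g and magnet 1g controls at 221 probe sets in limma. With RPM 1g minus magnet 1g given in each case, the 6 genes of most positive difference were apn (3.40), Mco3 (3.02), CG13272 (2.98), CG8568 (2.90), CG13627 (2.83) and CG13217 (2.65). The 6 of most negative difference were Jhbp13 (-4.20), CG17298 (-4.14), Acp63F (-3.40), CG14568 (-3.32), CG14573 (-3.01) and CG9458 (-2.92). Genes named at 1g that also differed were Osi17 (2.03), btl (1.07), CG10494 (0.93), CG15209 (0.67), Cyp6g1 (-1.93), Cyp4d20 (-1.67), wun (-1.04) and Zasp66 (-0.97). What lies behind these differences was not tested.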

How the results depend on the processing

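At 1g the 1 call became 71 at an unadjusted p under 0.001, 0 with only both groups in the fit, 0 with a gene's probe sets averaged, 117 (35 higher, 82 lower) with array weights, and 0 to 5 when single arrays were left out. Without closed replicates 3 and 4 it was 0 and without 1 and 2 it was 958, both chosen after seeing the data. On the RPM the 279 calls became 544 with only both groups in the fit, 124 (28 higher, 96 lower) with repeated quantile normalization, 148 with median centring, 1088 with array weights and 0 to 610 without single arrays. For the difference between 1g and RPM the count of 0 became 4 at an unadjusted p under 0.001. In the magnet controls 296 became 80 with only both groups in the fit, 808 with array weights and 101 to 336 without single arrays. For the difference between facilities 221 became 3, 1280 and 51 to 509 in the same settings.

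Replicate numbers of closed and open 1g arrays do not pair them (correlation of same-numbered deviations 0.033, -0.034 and 0.003). Between 1g and RPM, same-numbered closed arrays correlated at 0.055 to 0.330 and open arrays at -0.252 to 0.006. Different-numbered closed arrays ran from -0.273 to 0.208 and open arrays from -0.192 to 0.285. With the replicate block there was 1 call at 1g, 74 on the RPM, 0 for their difference, 248 in the magnet controls and 108 between facilities. Among 69 named genes at 1g, 1080 of 1150 values kept direction and side of the threshold. CG42337 lost its call in 5 settings, given above. In 57 cases an uncalled gene was called, 34 of them without closed replicates 1 and 2. Signs turned in 8 values, with scyl at -0.01 under the replicate block and -0.12 to 0.18 without single arrays, and, without closed replicates 3 and 4, scyl at -0.28, Hph at -0.10, bnl at -0.048 and glob1 at -0.047. The cause of these shifts was not tested. Signal over background was not given per probe set, so dim genes have no detection limit here.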
